A study of Mus musculus with 12 samples.

Results

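Replication-dependent histone genes were followed in splenic erythroblasts of mice on a selenium-deficient or a selenium-adequate diet. All array features whose symbols name such a gene were taken, features naming several genes included. This gave 69 of the 32750 features that name a gene: 5 of linker histone H1, 20 of H2A, 18 of H2B, 10 of H3, 14 of H4 and 2 naming genes of more than 1 class. A feature is the set of probes for one transcript. Of the 69, 30 name a single gene and 39 name several genes, most of them near-identical, such as the H4 features that list 13 H4 genes each, so their signal cannot be assigned to one gene. Such a feature is called here by the first gene it lists ("H2bc4-led" for a feature listing H2bc4, H2bc8 and H2bc6) or by all its genes ("H2ac18/H2ac19"). Features of the same class share sequence and are not independent of each other. Testis variants (H1f6, H2ac1, H2bc1) and sequences annotated as pseudogenes in RefSeq (H2ac14, H2bu1-ps) fall under the rule and were kept.

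The cells came from the spleens of male mice kept on either diet for 3 months and taken on day 3 after phenylhydrazine. This drug breaks down red cells and so provokes stress erythropoiesis, a rapid renewal of red cells in the spleen. Erythroblasts of 2 stages were separated by flow cytometry. All 4 groups received phenylhydrazine, so the adequate diet is the control and no group is free of the drug. The groups were basophilic erythroblasts on the deficient diet, basophilic erythroblasts on the adequate diet, proerythroblasts on the deficient diet and proerythroblasts on the adequate diet, with 3 arrays each and 5 ng of total RNA per array. Proerythroblasts are the earlier stage. Strain and age are not given in the sources used here. Nor do the labels say whether the replicates came from separate animals, so the p-values rest on the spread between arrays within the groups, and the number of arrays limits the precision.

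Replication-dependent histone genes supply the bulk of the core histones H2A, H2B, H3 and H4 and of the linker H1 that package newly copied DNA. They are transcribed in S phase and lie in clusters. Their messages mostly end in a stem-loop in place of a poly(A) tail, which Slbp binds and which is cut with the help of the U7 snRNP, and they decay when DNA synthesis stops. Erythroblasts divide rapidly as they mature and later condense their chromatin.

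The sequences upstream of these genes are shown because features of every class were higher on the deficient diet in proerythroblasts. Of 70 member gene symbols, 62 had an entry in the RefSeq promoter table (GRCm38.p6). The 250 bases before each start were searched on both strands, with overlapping matches allowed, for CCAAT, for TATAAA, for the octamer ATGCAAAT known from H2B promoters and for AAACACA, a box known from H1 promoters. One promoter of each class follows, 5′ to 3′ on the strand of the gene, with every match in capitals:
H1f2, chr13:23738557-23738806, plus strand: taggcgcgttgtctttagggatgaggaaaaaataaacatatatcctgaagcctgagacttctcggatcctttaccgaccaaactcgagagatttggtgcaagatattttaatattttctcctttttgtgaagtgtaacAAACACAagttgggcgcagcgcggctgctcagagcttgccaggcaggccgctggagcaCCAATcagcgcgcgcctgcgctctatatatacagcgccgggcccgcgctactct
H2ac18, chr3:96245247-96245496, plus strand: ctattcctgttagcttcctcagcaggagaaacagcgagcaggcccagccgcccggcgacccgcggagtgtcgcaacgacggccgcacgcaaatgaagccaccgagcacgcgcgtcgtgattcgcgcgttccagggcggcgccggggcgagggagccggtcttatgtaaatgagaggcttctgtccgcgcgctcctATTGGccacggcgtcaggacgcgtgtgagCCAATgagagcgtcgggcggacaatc
H2bc8, chr13:23571150-23571399, plus strand: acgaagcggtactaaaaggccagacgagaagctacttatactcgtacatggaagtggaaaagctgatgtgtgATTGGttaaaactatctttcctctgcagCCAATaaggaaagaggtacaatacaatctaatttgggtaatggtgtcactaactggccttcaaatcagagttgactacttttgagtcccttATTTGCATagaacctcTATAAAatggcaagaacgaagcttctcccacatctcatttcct
H3c3, chr13:23745522-23745771, minus strand: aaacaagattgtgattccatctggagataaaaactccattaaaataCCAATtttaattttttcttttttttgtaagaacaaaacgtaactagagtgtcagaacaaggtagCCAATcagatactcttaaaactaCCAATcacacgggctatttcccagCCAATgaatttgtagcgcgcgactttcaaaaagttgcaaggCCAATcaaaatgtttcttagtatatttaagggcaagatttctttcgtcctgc
H4c1, chr13:23761250-23761499, minus strand: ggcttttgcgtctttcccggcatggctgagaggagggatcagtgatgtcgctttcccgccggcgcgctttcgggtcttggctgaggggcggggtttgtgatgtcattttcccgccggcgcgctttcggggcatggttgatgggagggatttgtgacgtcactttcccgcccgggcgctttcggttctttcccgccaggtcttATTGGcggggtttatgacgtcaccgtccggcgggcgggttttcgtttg
H1f2, H2ac18, H3c3 and H4c1 each have a feature of their own, and H2bc8 is listed by the H2bc4-led feature. The H1f2 promoter holds AAACACA with its first base 112 bases before the start and CCAAT 54 bases before it. That of H3c3 holds CCAAT 5 times. The H2bc8 promoter holds the octamer on the opposite strand, followed by TATAAA 43 bases before the start.

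CCAAT was present in 51 of the 62 member promoters (82.3%), against 34.5% of the promoters of all 27025 genes. It was found in every H1, H2A and H2B promoter searched, in 8 of 10 of H3 and in 3 of 12 of H4. TATAAA was present in 46.8% of member promoters and 13% of all promoters. The octamer was found in 7 of 18 H2A and 6 of 16 H2B promoters and in none of H1, H3 or H4, against 1.6% of all promoters. AAACACA was found in 5 of 6 H1 promoters (83.3%), against 6.2% of all promoters. It was also found in 2 of 18 H2A and 2 of 16 H2B promoters, and in none of H3 or H4. On chromosome 13, 10 pairs of an H2A and an H2B gene start back to back, with 164 to 281 bases between their starts, so that both genes share one upstream region. A match in such a region can be counted for both genes, so the H2A and H2B counts are not independent. These matches describe the letters in the window and not binding.

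The deposited values are on a log2 scale, so a difference of 1 is a doubling. Levels of different features depend on their probes and were used only to pick the feature with the highest mean in each class and to mark features near the top of the scale. The filter on dim features asked for a level above 5.30, the overall median, on 3 or more arrays. It kept 21362 named features and 66 of the 69 members for testing. H4c17-led, H2ac12 and H4c2-b were not kept, with highest values of 4.71, 4.82 and 3.91. A feature passed the test when limma's p, adjusted by Benjamini-Hochberg over all 21362 features, was at most 0.05. The 2 arrays of basophilic replicate 2 stood apart. Their background features had medians of 4.70 (deficient) and 4.19 (adequate) against 3.31 to 3.80 in the other 10 arrays, and their interquartile ranges were 2.17 and 2.25 against 2.43 to 2.66. In the deficient diet, replicate 2 was below the mean of replicates 1 and 3 for 69 of 69 members, by a median of 1.07 on the log2 scale; in the adequate diet this held for 68 of 69, with a median of 0.78. How many of all features did so was not counted. Because of the background and the narrower ranges, the member counts are given with all 12 arrays and without these 2. For deficient basophilic replicate 3, GEO's description field says proerythroblasts while title and cell type say basophilic, and the array was kept in the basophilic group. Its closest array by correlation over all features was deficient basophilic replicate 1 (r = 0.986).

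**Figure D1:**
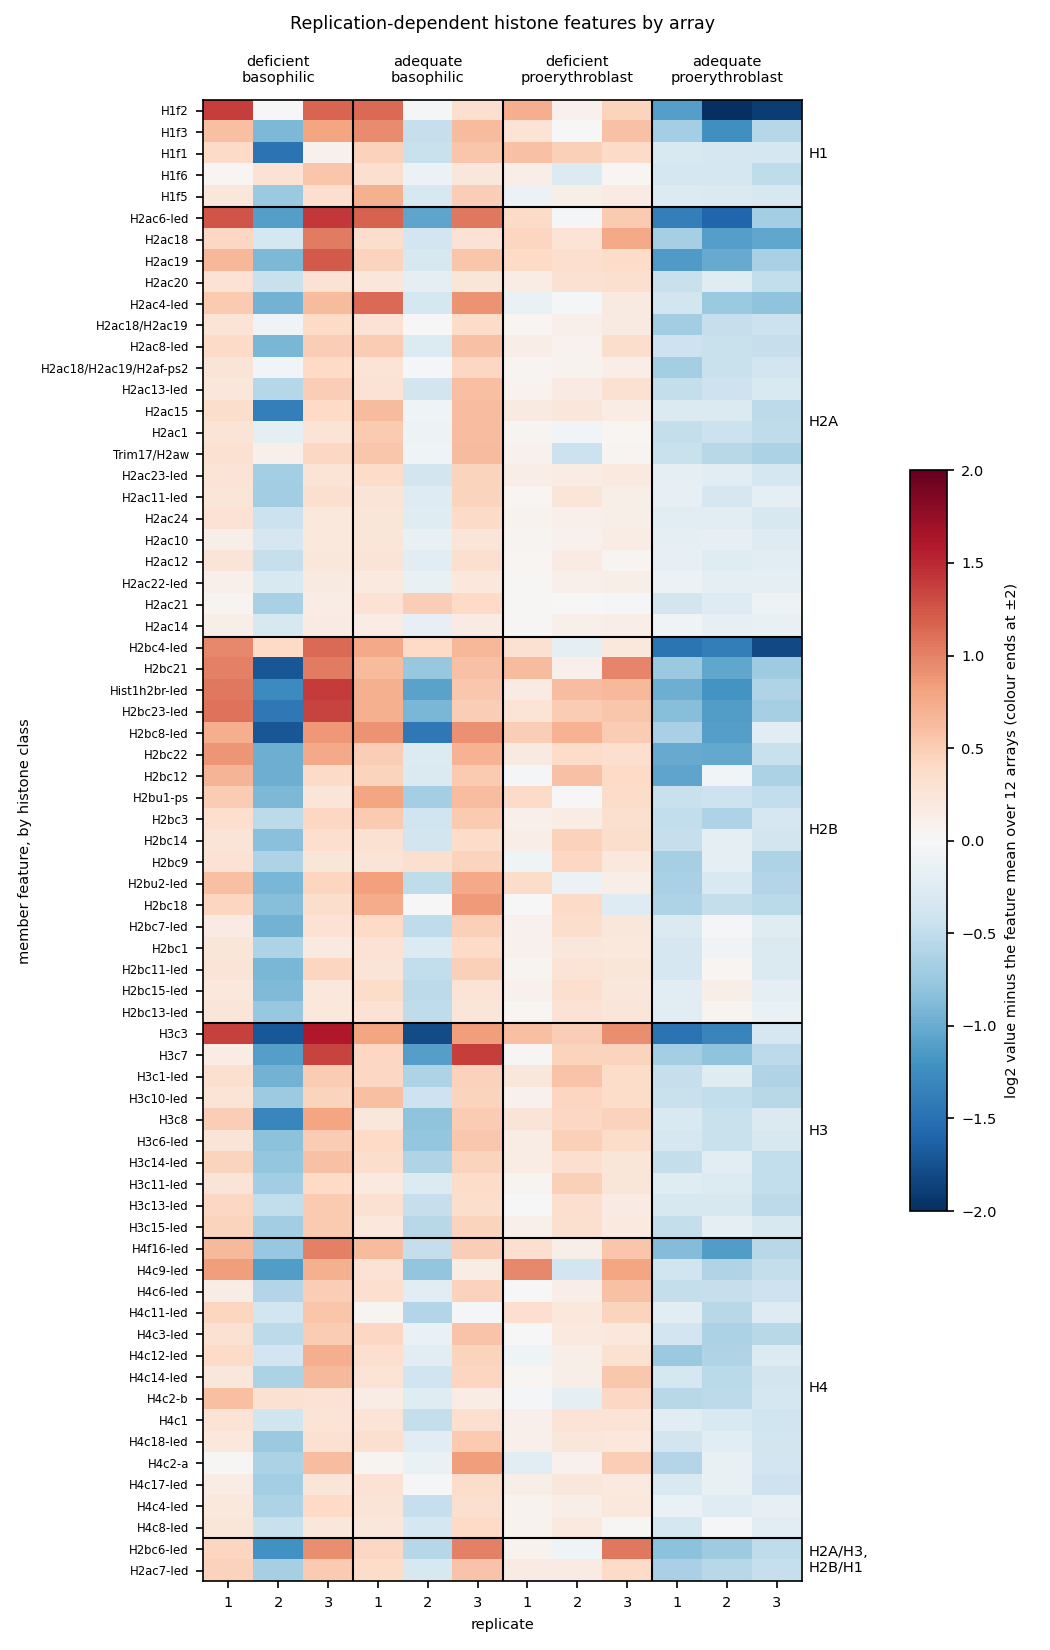
Heat map of the 69 member features (rows, by histone class and within a class by the diet difference in proerythroblasts) in the 12 arrays (columns, 3 replicates per group), coloured by the log2 value minus the feature's mean over the 12 arrays. The 3 adequate proerythroblast arrays are low across the classes, and replicate 2 is below the mean of replicates 1 and 3 in 69 members of the deficient and 68 of the adequate basophilic group.

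The median over the 69 members gives the pattern in short. It was 9.01, 7.43 and 9.16 in deficient basophilic arrays and 8.89, 7.90 and 9.06 in adequate basophilic arrays. In proerythroblasts it was 8.58, 8.58 and 8.78 on the deficient diet, against 7.39, 7.38 and 7.79 on the adequate diet. Apart from basophilic replicate 2 of both diets, the adequate proerythroblast arrays had the lowest medians of the series.

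The first comparison asked what selenium deficiency changed in proerythroblasts. Histone features of every class were higher on the deficient diet. All 69 estimates lay above 0, with a median of 0.63 and a range of 0.21 to 2.16, while the median over all features tested was 0.02. In 63 of the 66 members tested every deficient array exceeded every adequate array, which 15.7% of all features tested did. The 3 exceptions were H2bc15-led, H2bc13-led and H4c2-a. In bulk samples, a change in the share of cells that carry histone RNA and a change in its amount per cell cannot be told apart.

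With all 12 arrays, 4 members rose past the threshold and none fell. Of all features tested, 4.05% passed, 1.25% higher and 2.79% lower. The 4 were H1f2, H2bc4-led, H2ac18 and H2ac18/H2ac19. Without basophilic replicate 2 of both diets, 55 members rose (7.02% of all features did), and with only the 6 proerythroblast arrays in the fit 49 rose (5.50% of all features did). The differences of the group means are the same in all 3 fits, and what changes is the estimate of the spread. The replicate numbers were taken to pair the samples of the 2 diets, by the correlation of their deviations. In basophilic erythroblasts that correlation does not tell replicates 1 and 3 apart by number. With the number as a block, 8 members rose, and with the number as a block within each stage 50 rose (1.70% and 4.11% of all features did).

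H1f2, which encodes the linker histone H1.2 (array symbol Hist1h1c), had the largest difference. It was at 11.78, 11.14 and 11.50 in deficient proerythroblasts, against 9.95, 8.83 and 9.16 in adequate proerythroblasts. The groups did not overlap, and the lowest deficient array was above the highest adequate one by more than a doubling. The difference was 2.16 (SE 0.41, adjusted p = 0.0122 by limma), and the adjusted p was 0.00228 without basophilic replicate 2. H1f2 no longer passed without deficient proerythroblast replicate 3 or without adequate proerythroblast replicate 2, with adjusted p of up to 0.0659.

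H2bc4-led, a feature of 3 H2B genes, was at 11.60, 11.12 and 11.51 in deficient proerythroblasts, against 9.84, 9.91 and 9.50 in adequate proerythroblasts. All deficient arrays were above all adequate arrays, and the arrays within each group lay close together. The difference was 1.66 (SE 0.21, limma adjusted p = 0.00165, and 0.000307 without basophilic replicate 2). Of the 4 members past the threshold it was the one that passed under each of the 23 alternatives tried. A second feature, H2bc8-led, lists the same 3 genes in another order and is mentioned because its values differed, as noticed after the values were seen. It was at 11.09, 11.28 and 11.10 in deficient and 9.95, 9.49 and 10.38 in adequate proerythroblasts. Its difference of 1.22 (SE 0.70, limma adjusted p = 0.526) did not pass with all 12 arrays and passed without basophilic replicate 2 (adjusted p = 0.00318).

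H2ac18 and H2ac19 are neighbouring, near-identical H2A genes, so the split of signal between their features is uncertain. The H2ac18 feature was at 6.72, 6.56 and 7.04 in deficient proerythroblasts, against 5.62, 5.18 and 5.24 in adequate proerythroblasts. The groups did not overlap, and the difference was 1.43 (SE 0.31, limma adjusted p = 0.0258). The feature naming both genes was at 10.04, 10.09 and 10.17 in deficient and at 9.30, 9.54 and 9.56 in adequate proerythroblasts, a difference of 0.63 (SE 0.15, limma adjusted p = 0.0416). Without basophilic replicate 2 the adjusted p was 0.00171 for H2ac18 and 0.00202 for H2ac18/H2ac19. Leaving out any 1 of the 6 proerythroblast arrays ended the call of either feature, with adjusted p of up to 0.126 for H2ac18 and 0.195 for H2ac18/H2ac19. Median centring ended both calls too. In all, H2ac18 lost its call in 9 of 24 alternatives and H2ac18/H2ac19 in 13 of 23, some of which left out a basophilic array.

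The H3 and H4 features with the highest means did not pass when all arrays were used. H3c6-led, a feature of 8 H3 genes, was at 11.77, 12.10 and 12 in deficient proerythroblasts, against 11.29, 11.18 and 11.31 in adequate proerythroblasts. The groups were apart by 0.70 (SE 0.36, limma adjusted p = 0.445), and the adjusted p was 0.00305 without basophilic replicate 2. H4c14-led, a feature of 13 H4 genes, was at 12.41, 12.49 and 12.91 in deficient and at 12.02, 11.83 and 12 in adequate proerythroblasts. Here too the groups did not overlap, with a difference of 0.65 (SE 0.30, limma adjusted p = 0.353, and 0.0188 without basophilic replicate 2).

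By class, the median difference was 0.81 for H1, 0.52 for H2A, 0.67 for H2B, 0.71 for H3 and 0.60 for H4. Without basophilic replicate 2 the members that rose were 4 of 5 H1, 16 of 19 H2A, 15 of 18 H2B, 9 of 10 H3 and 9 of 12 H4 features tested, and both features of mixed class. The 5 members with a mean above 13 differed by 0.21 to 0.32. They lie near the highest value in the table, 14.26, and the other 64 differed by 0.23 to 2.16 with a median of 0.65. H2ac14, the member with the highest mean, was at 13.65, 13.72 and 13.75 in deficient and at 13.56, 13.46 and 13.48 in adequate proerythroblasts. H2bc13-led was at 13.37, 13.61 and 13.56 in deficient and at 13.12, 13.38 and 13.19 in adequate proerythroblasts. For H2bc13-led the groups overlapped, and for H2ac14 they did not. Neither passed (limma adjusted p = 0.703 for H2ac14 and 0.865 for H2bc13-led, and 0.0561 and 0.0656 without basophilic replicate 2). Whether the top of the array's range limits these differences was not tested.

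**Figure D2:**
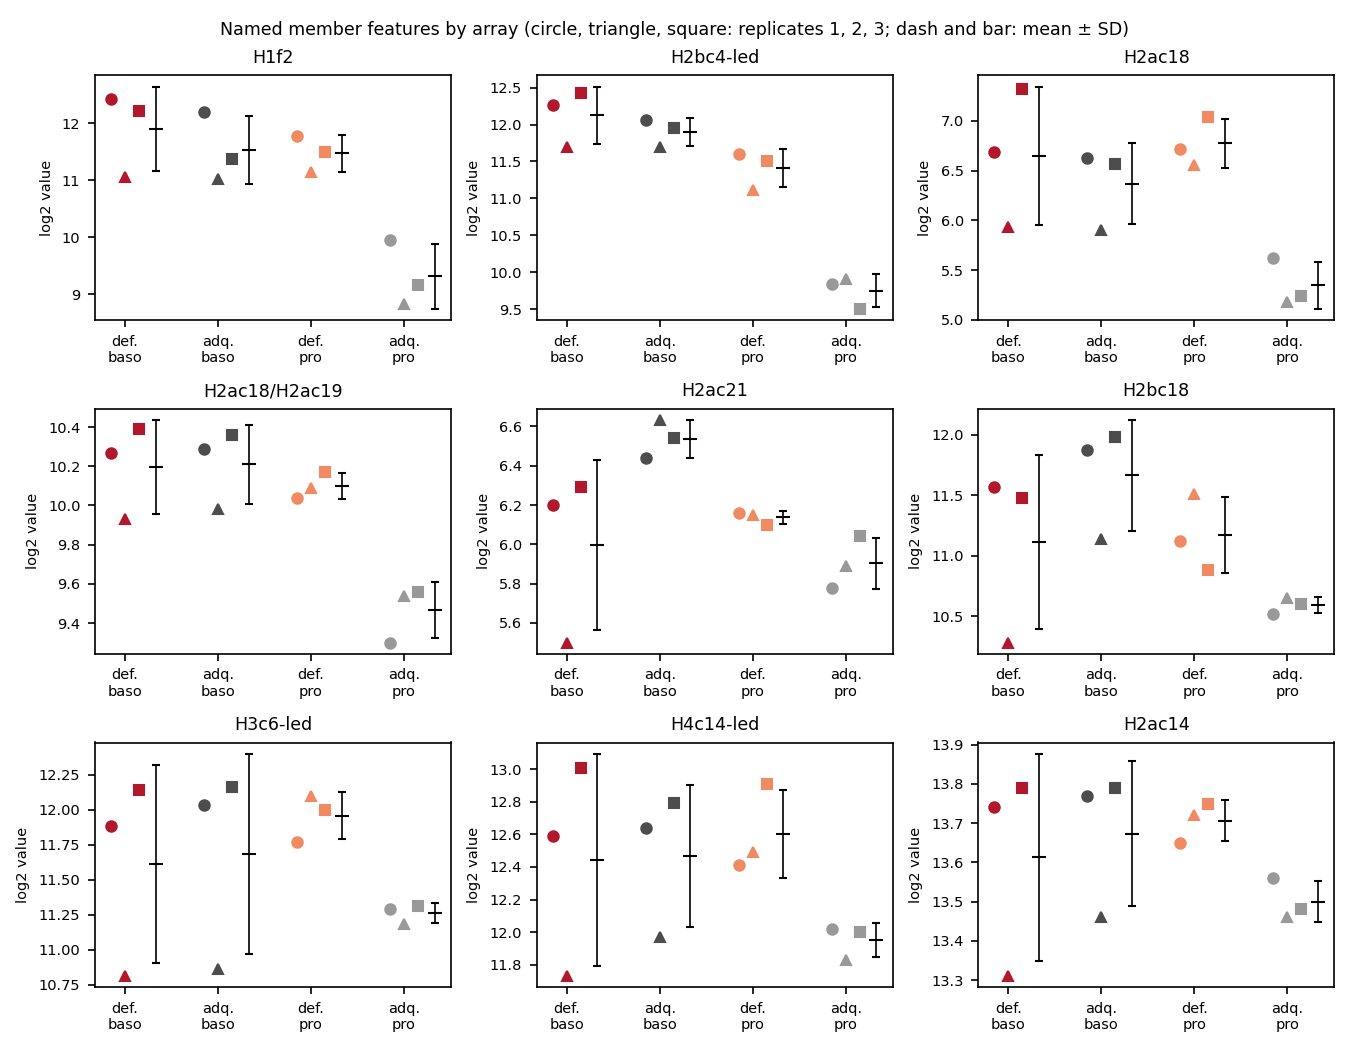
Log2 values of 9 named member features in each array, by group, with the mean ± SD (n = 3) beside the points. In all 9 panels the 3 deficient proerythroblast arrays lie above the 3 adequate proerythroblast arrays, by the least in H2ac14 and H2ac21.

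The same diet comparison was made in basophilic erythroblasts. No member passed the test with all arrays. Of all features tested, 0.014% passed, 0.00936% higher and 0.00468% lower. Of the 69 estimates, 19 lay above 0 and 50 below, with a median of -0.11. Without replicate 2 of both diets, again none passed (2.03% of all features did), and the median was -0.04. A p that misses the threshold does not show that the diets gave equal levels. With the replicate number as a block, over all arrays or within each stage, the count was also 0, and 0.0936% and 1.25% of all features passed. Of the 66 members tested, none had every deficient array above every adequate array and 1 had every one below (4.11% and 4.01% of all features). Without replicate 2 this held for 15 members above and 21 below of the 66 tested (21% and 23.1% of all features).

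The smallest p belonged to H2ac21, an H2A gene, which was at 6.20, 5.50 and 6.29 in deficient basophilic erythroblasts, against 6.44, 6.63 and 6.54 in adequate basophilic erythroblasts. All deficient arrays were below all adequate arrays, with replicate 2 the lowest of the deficient group. The difference was -0.54 (SE 0.18, limma adjusted p = 0.541) and -0.25 without replicate 2 (adjusted p = 0.295). H2bc18, an H2B gene, was at 11.57, 10.28 and 11.48 in deficient and at 11.87, 11.14 and 11.98 in adequate basophilic erythroblasts. Its groups overlapped, with a difference of -0.55 (SE 0.33, limma adjusted p = 0.915) and -0.40 without replicate 2 (adjusted p = 0.328). H1f2 was at 12.43, 11.05 and 12.22 in deficient basophilic erythroblasts and at 12.19, 11.02 and 11.38 in adequate basophilic erythroblasts. H2bc4-led was at 12.26, 11.69 and 12.43 in deficient and at 12.06, 11.69 and 11.96 in adequate basophilic erythroblasts. For both features the diets overlapped at this stage with all arrays. Without replicate 2 both deficient arrays were above both adequate arrays, with differences of 0.54 for H1f2 (limma adjusted p = 0.632) and 0.34 for H2bc4-led (limma adjusted p = 0.467).

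The stage comparisons asked how the features changed from proerythroblasts to basophilic erythroblasts on each diet. They share their proerythroblast arrays with the diet comparison above, so the adequate proerythroblast arrays enter both. Over all features tested the median stage difference was 0.06 on the deficient diet and 0.11 on the adequate diet. Centring each array on its median moved these to -0.13 and -0.10. After centring, 16.7% of all features were higher and 30.2% lower on the deficient diet, and 10.5% were higher and 30.1% lower on the adequate diet. After quantile normalization 21.6% were higher and 18.7% lower on the deficient diet, and 12% were higher and 21% lower on the adequate diet.

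On the adequate diet, 19 members rose in basophilic erythroblasts and none fell, while 54.0% of all features passed, 28.3% higher and 25.8% lower. All 69 estimates lay above 0, with a median of 0.62. Every basophilic array exceeded every proerythroblast array in 26 of the 66 members tested, where 41.0% of all features tested did so. Without replicate 2, 65 of 66 rose (38.3% of all features did), the median was 0.85, and all 69 members had their 2 remaining basophilic arrays above all 3 proerythroblast arrays (44.8% of all features tested did). With all 12 arrays the share of members that rose, 19 of 66, is thus close to that of all features, while without the 2 arrays it is above it.

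H2bc4-led differed by 2.15 between the stages on the adequate diet (SE 0.21, limma adjusted p = 1.67e-05), and H1f2 by 2.22 (SE 0.41, limma adjusted p = 0.00134). Their values are those given above, and for both the lowest basophilic array was above the highest proerythroblast array. H2ac18/H2ac19 was at 10.29, 9.98 and 10.36 in adequate basophilic erythroblasts, against 9.30, 9.54 and 9.56 in adequate proerythroblasts, a difference of 0.74 (SE 0.15, limma adjusted p = 0.00294). The feature naming H2ac18, H2ac19 and H2af-ps2 had nearly the same values (10.32, 10 and 10.45 in adequate basophilic erythroblasts, against 9.36, 9.59 and 9.66 in adequate proerythroblasts) and differed by 0.72 (limma adjusted p = 0.00429). Both share most of their genes and are no separate evidence. Without replicate 2 the difference was 2.26 for H2bc4-led and 2.47 for H1f2, and all 19 members named for this comparison passed.

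A feature naming both H2aw and Trim17, which encodes no histone, was at 7.07, 6.44 and 7.16 in adequate basophilic erythroblasts, against 6.08, 5.96 and 5.89 in adequate proerythroblasts. The stages did not overlap, and the difference was 0.91 (SE 0.20, limma adjusted p = 0.00433). H2ac1, a testis variant of H2A, was at 10.08, 9.46 and 10.17 in adequate basophilic erythroblasts, against 9.09, 9.13 and 9.05 in adequate proerythroblasts. It differed by 0.81 (SE 0.19, limma adjusted p = 0.00555), again without overlap. After median centring 4 members passed, H2bc4-led, H1f2, H2ac18/H2ac19 and Trim17/H2aw, while H2ac1 (adjusted p = 0.0546) and H2ac18/H2ac19/H2af-ps2 (adjusted p = 0.0506) did not. The other 13 members that rose with all 12 arrays were H2ac4-led, H2ac7-led, H2ac18, H2ac19, H2ac21, H2bc9, H2bc18, H2bc22, H1f3, H1f6, H4c3-led, H4c12-led and H4f16-led, with differences of 0.54 to 1.20. They cover H1, H2A, H2B and H4, and no feature naming H3 genes alone passed with all arrays.

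On the deficient diet, 1 member passed in either direction, while 55.3% of all features passed, 30.3% higher and 25.0% lower. This was H2bc4-led, which was at 12.26, 11.69 and 12.43 in basophilic erythroblasts, against 11.60, 11.12 and 11.51 in proerythroblasts. The stages did not overlap, and the difference was 0.72 (SE 0.21, limma adjusted p = 0.0182). It no longer passed when the fit held only the arrays compared, after median centring, or without deficient proerythroblast replicate 2, with adjusted p of up to 0.103. Without replicate 2 of both diets the limma adjusted p was 0.002.

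The direction of the other members on the deficient diet rested on replicate 2. With all arrays 58 of the 69 estimates lay below 0 and the median was -0.13, and all 10 H3 features were below 0. Without replicate 2 of both diets 65 lay above 0, 3 below and 1 at 0, the median was 0.21, and 15 members rose (31.5% of all features did). Those 15 were H2bc4-led, H2bc23-led, Hist1h2br-led, H2bc22, H2bu2-led, H2ac6-led, H2ac4-led, H2ac1, H2ac19, Trim17/H2aw, H2ac8-led, H3c13-led, H3c3, H4c12-led and H4f16-led, with differences of 0.25 to 1.04. Every basophilic array exceeded every proerythroblast array in 2 of the 66 members tested with all arrays and in 33 without replicate 2, where 36.2% and 39.6% of all features tested did. The share of members that passed as higher is below that of all features in both fits, while the share without overlap is below it with all arrays and above it without replicate 2.

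**Figure D3:**
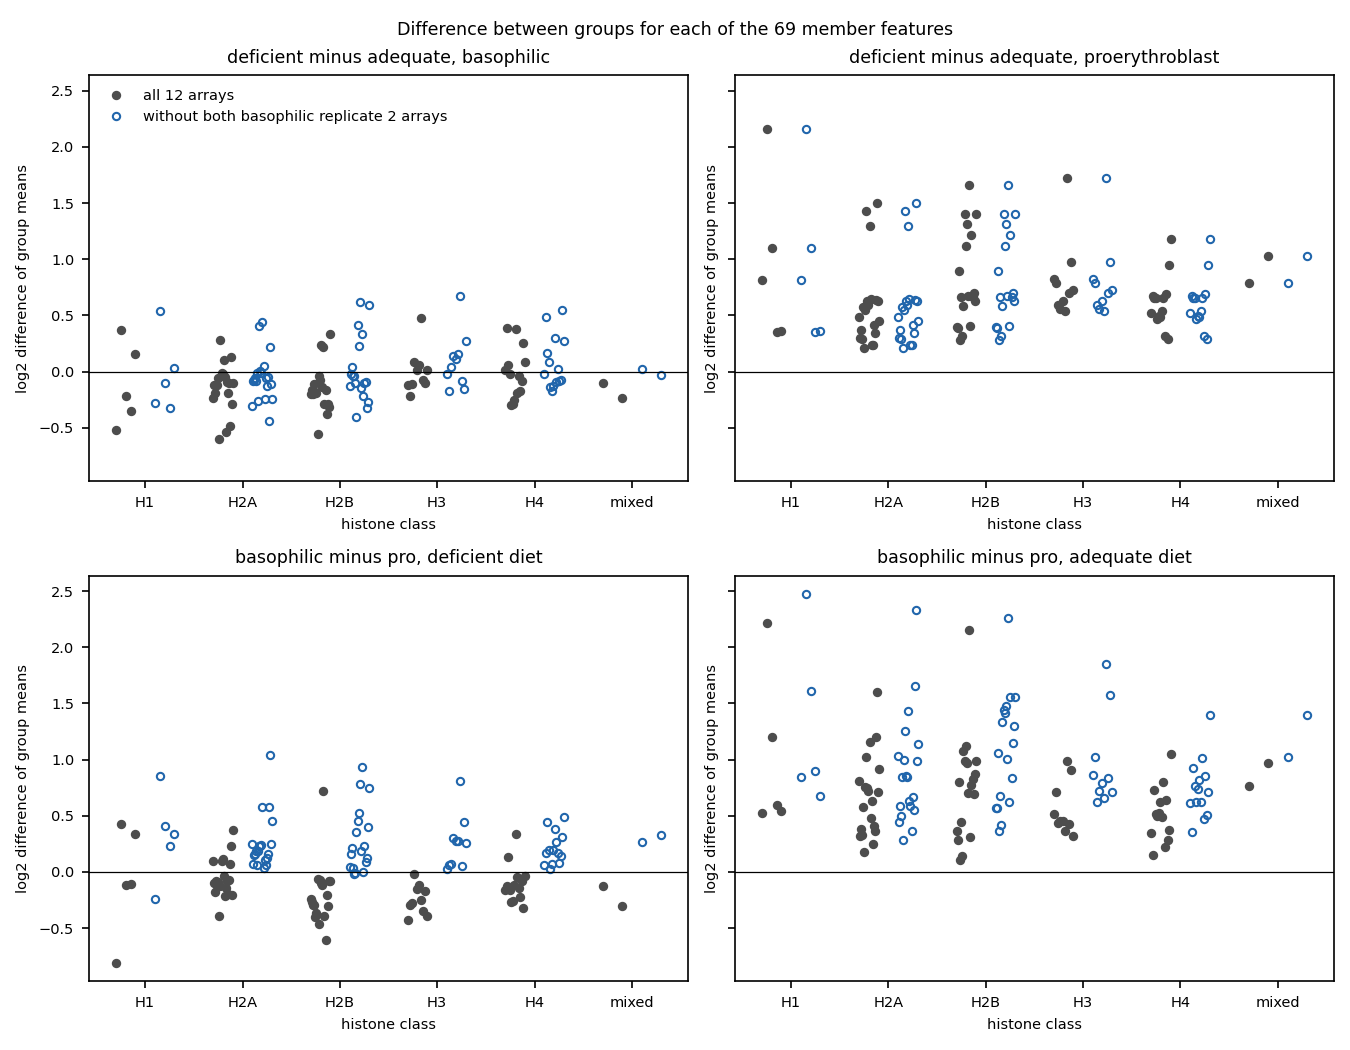
Log2 difference between group means for each of the 69 member features, by histone class and comparison, with all 12 arrays (filled) and without both basophilic replicate 2 arrays (open). The proerythroblast diet panel lies above 0 for all 69, between 0.21 and 2.16, and the deficient-diet stage panel shifts from a median of -0.13 to 0.21 when the 2 arrays are left out.

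The test of whether the diet difference itself differed between the stages is the interaction, in which the proerythroblast diet difference is subtracted from the basophilic one. All 69 estimates lay below 0, with a median of -0.77, beside 0.03 over all features tested. None passed by limma (0.262% of all features did, 0.14% higher and 0.122% lower). The smallest p belonged to H2bc4-led, at -1.44 (SE 0.30, limma adjusted p = 0.0786), and to H1f2, at -1.79 (SE 0.57, limma adjusted p = 0.271). Without replicate 2 of both diets, 21 members passed, all below 0 (1.45% of all features did), with a median of -0.67 over the 69. H2bc4-led was among them (-1.33, adjusted p = 0.0235) and H1f2 was not (-1.62, adjusted p = 0.104). With the replicate number as a block, 1 member passed below 0, H1f2 (adjusted p = 0.0337, 0.145% of all features), and with the number as a block within each stage 29 passed, all below 0 (1.42% of all features did).

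Genes that act on histone RNA were read beside the members. Of all features tested, 1.25% were higher and 2.79% lower on the deficient diet in proerythroblasts. Without basophilic replicate 2 of both diets these shares were 7.02% and 9.38%. Among 12 tested genes of histone gene transcription and its trigger, 1 rose on the deficient diet in proerythroblasts and none fell. This was E2f2, an E2F factor of the cell cycle, at 10.84, 11.20 and 10.95 in deficient proerythroblasts, against 9.08, 9.26 and 8.96 in adequate proerythroblasts (difference 1.90, SE 0.14, limma adjusted p = 5.26e-05). The groups were far apart compared with the spread within each. Ccne2, a cyclin E that activates Cdk2 at the start of S phase, was at 9.86, 9.72 and 9.78 in deficient and at 9.28, 9.27 and 9.03 in adequate proerythroblasts. It did not pass with all arrays (difference 0.59, limma adjusted p = 0.104) and passed without basophilic replicate 2 (adjusted p = 0.00368), when 5 genes of this list rose and 1 fell. Npat, the coactivator of histone gene transcription, had a difference of 0.02 (limma adjusted p = 0.998).

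Of 19 tested genes of 3′ end processing and decay, none passed for diet in either stage with all arrays. Without basophilic replicate 2, 1 of these genes rose and 4 fell in deficient proerythroblasts (7.02% and 9.38% of all features did). Their median difference in proerythroblasts was -0.25, and the smallest adjusted p was that of Lsm10 of the U7 snRNP (-0.60, limma adjusted p = 0.0522, and 0.0128 without basophilic replicate 2). Slbp, the stem-loop binding protein, was at 9.10, 8.86 and 9.05 in deficient and at 8.86, 8.74 and 8.68 in adequate proerythroblasts, groups that touched at 8.86. Of 26 tested genes of DNA synthesis and S phase, none passed for diet in proerythroblasts, with a median of 0.05. Without basophilic replicate 2, 3 of the 26 rose and none fell: Rrm2 and Tyms, which make DNA precursors, and Tk1, thymidine kinase. The histone chaperones gave no call among 23 tested genes, with a median of -0.08, and 2 rose and 4 fell without basophilic replicate 2. Among 9 replacement and other histones outside the rule none passed, and without basophilic replicate 2, H2aj and H2ax rose. H2ax, whose message can end in a stem-loop as well as in poly(A), was at 12.06, 11.66 and 11.98 in deficient and at 11.46, 10.93 and 11.15 in adequate proerythroblasts (difference 0.72, limma adjusted p = 0.496 with all arrays).

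The same lists were counted between the stages, beside the 30.3% of all features that were higher and 25.0% lower on the deficient diet, and 28.3% higher and 25.8% lower on the adequate diet. Without replicate 2 of both diets, 31.5% of all features were higher and 26.8% lower on the deficient diet. The adequate diet had 38.3% higher and 29.5% lower in that fit. In basophilic erythroblasts on the deficient diet, 20 of 26 S phase genes fell and none rose (median -1.17). On the adequate diet 6 fell and none rose (median -0.61), a share near that of all features, and without replicate 2 of both diets 23 fell on the deficient diet, and 12 fell and 2 rose on the adequate diet. Rfc3, a clamp loader subunit, was at 6.77, 6.08 and 6.86 in deficient basophilic erythroblasts, against 8.31, 7.74 and 8.05 in deficient proerythroblasts (limma adjusted p = 0.00128). Of the 19 genes of 3′ end processing, 11 fell and 1 rose on the deficient diet, and 10 fell and 2 rose on the adequate diet. Leaving out replicate 2 of both diets gave 11 lower and 2 higher on either diet. Cpsf3, the nuclease that cuts the histone message, fell by 1.63 on the log2 scale on the deficient diet (limma adjusted p = 0.00706) and fell by 2.39 on the adequate diet (limma adjusted p = 0.000342). Of 23 chaperones, 16 fell and 1 rose on the deficient diet, and 11 fell and 2 rose on the adequate diet. With replicate 2 left out, 18 fell and 1 rose on the deficient diet, and 14 fell and 3 rose on the adequate diet. Nasp, a chaperone of histones H1 and H3, fell by 1.47 on the log2 scale on the deficient diet (limma adjusted p = 0.000507) and fell by 1.15 on the adequate diet (limma adjusted p = 0.000791). Of 12 genes of transcription and its trigger, 8 fell and 1 rose on the deficient diet, and 3 fell and 1 rose on the adequate diet. These counts without replicate 2 were 8 lower and 1 higher on the deficient diet, and 4 lower and 3 higher on the adequate diet. Of 9 replacement histones, 1 fell and 3 rose on the deficient diet, and 1 fell and 2 rose on the adequate diet. Here, leaving out replicate 2, 3 fell and 3 rose on the deficient diet, and 1 fell and 4 rose on the adequate diet. Rfc3, Cpsf3 and Nasp also passed without replicate 2.

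**Figure D4:**
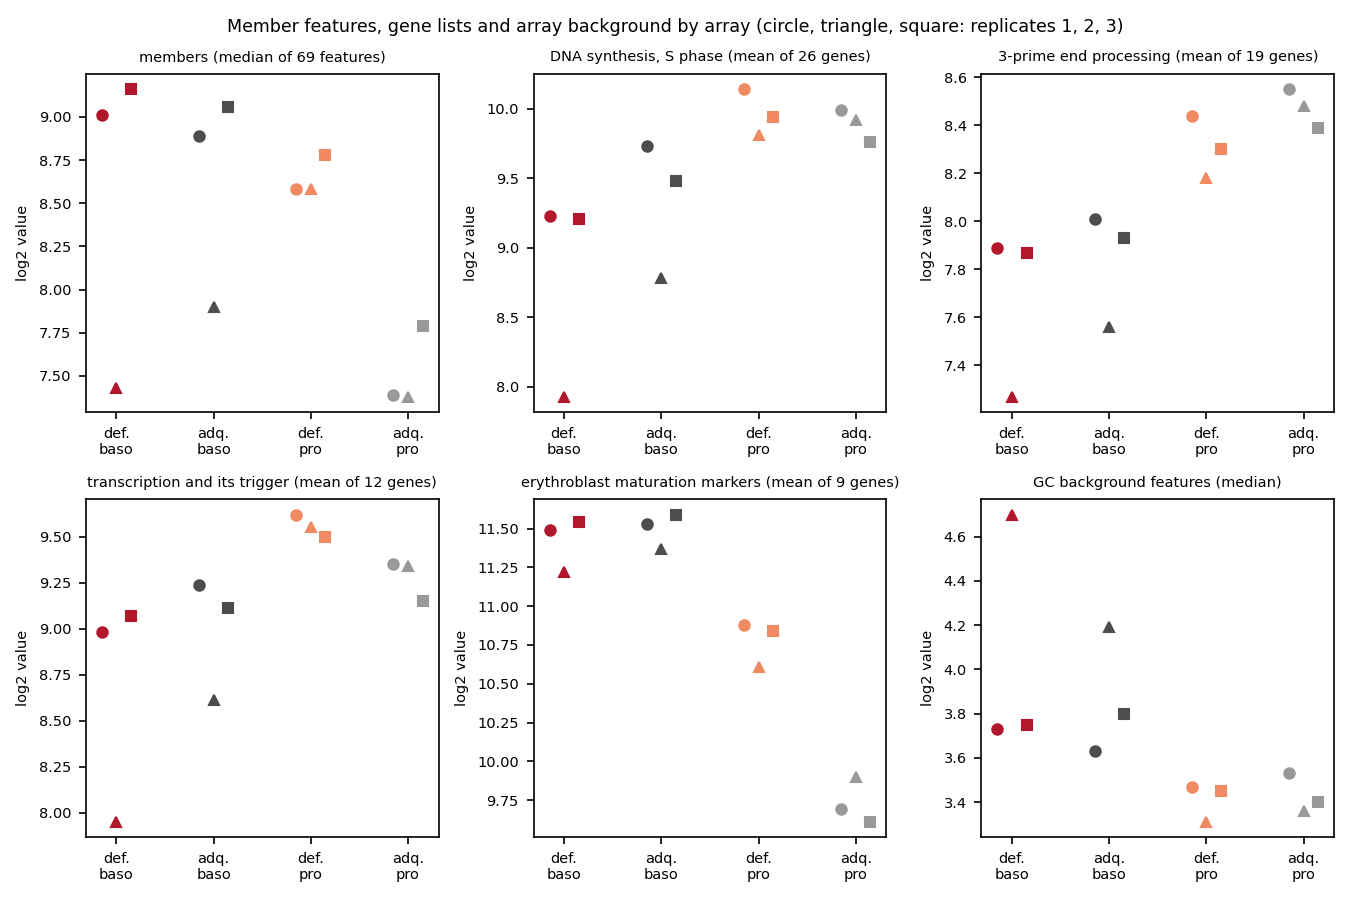
Log2 levels per array for the median of the 69 members, the mean of 4 gene lists and the median of the GC background features, by group. The members are lowest in adequate proerythroblasts (7.38 to 7.79) and in basophilic replicate 2 (7.43 and 7.90), the S phase list is higher in proerythroblasts than in basophilic erythroblasts, and the maturation markers are lowest in adequate proerythroblasts.

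Markers of erythroid stage moved with the diet in proerythroblasts. Of 9 tested maturation markers, 6 rose on the deficient diet and none fell, with a median of 1.26. Hbq1a, a globin gene, rose by 2.19 and Alas2, the erythroid enzyme of heme synthesis, by 1.67 (limma adjusted p = 3.97e-05 and 0.000988). The mean level of that list was 10.61 to 10.88 in deficient proerythroblasts, against 9.61 to 9.90 in adequate proerythroblasts, and 11.22 to 11.59 in the 6 basophilic arrays. Of 5 tested progenitor markers 3 fell, with log2 differences of -2.18 for Kit, -2.06 for Myb and -1.36 for Cdk6, and Tfrc, the transferrin receptor, rose by 0.97. The counts of both lists were the same without basophilic replicate 2. In basophilic erythroblasts none of these markers passed for diet, with or without replicate 2. The arrays labelled proerythroblasts thus differed by diet in stage markers as well as in histone features, and the part of that difference in the histone result was not tested.

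For markers of other spleen cells the ranges of the 2 diets overlapped in proerythroblasts. The mean level of 12 neutrophil markers was 7.09 to 7.94 in deficient proerythroblasts and 6.73 to 8 in adequate proerythroblasts, and 1 of them, Mmp9, rose on the deficient diet (2 without basophilic replicate 2). Macrophage markers (12 genes) ranged from 5.73 to 6.48 in deficient and from 5.50 to 6.64 in adequate proerythroblasts, with no call. B cell markers (5 genes) ranged from 7.16 to 7.65 in deficient and from 6.98 to 8.27 in adequate proerythroblasts, with no call. T and NK cell markers (7 genes) ranged from 5.39 to 5.67 in deficient and from 5.17 to 6.11 in adequate proerythroblasts, with no call. Of 5 megakaryocyte markers, Itga2b rose, and the ranges of their mean level were 6.43 to 6.82 in deficient and 6.53 to 6.61 in adequate proerythroblasts. On this log2 scale no marker is listed at 0. In basophilic erythroblasts 6 of 12 neutrophil markers fell on the deficient diet, and 7 fell and 1 rose on the adequate diet, relative to proerythroblasts, beside the histone differences between the stages, and their part in those differences was not tested.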

How the data were processed

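Biotin-labelled targets made from total RNA of the sorted cells were run on Affymetrix whole-transcript arrays, per the labels' protocols. The authors deposited log2 values, made with Affymetrix Expression Console per the submitters' processing notes. Its version, the summarisation, the normalization method and the array's genome build are not given in the sources used here. No further transformation was applied. The 72688 features include 186 controls, and 31258 features name 1 gene, 1492 several and 39752 none. Old symbols were updated through gene identifiers to those of RefSeq.

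All features went into 1 linear model (limma 3.58.1, R 4.3.3) with a mean per group over 12 arrays and default eBayes, with Benjamini-Hochberg adjustment over 21362 features in each of 5 comparisons. Tables, promoter searches and figures were made in python 3.11.15. The script was tested on simulated data. Members, gene lists and tests were chosen with earlier results of these data known, and only gene lists and markers that bear on the members are given. Lists are described by counts and medians, with no test of a list. Values in each array are given for up to 6 members past the threshold with the smallest adjusted p in a comparison (the 2 smallest p where none passed), for the member with the highest mean in each class, and for members whose interaction passed. From lists, up to 4 genes with the smallest adjusted p could be named, and Npat, Slbp and H2ax were added after their values were seen.

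Whether the replicate numbers pair the samples was checked by correlating the deviations of same-numbered arrays from their group means over all features tested. For the diet comparisons r was 0.470, 0.233 and 0.529 in proerythroblasts and 0.718, 0.779 and 0.532 in basophilic erythroblasts. On this basis the numbers were taken to pair the samples. Arrays of different number had r of -0.379 to 0.0202 in proerythroblasts. In basophilic erythroblasts deficient replicate 3 had r of 0.592 with adequate replicate 1, and deficient replicate 1 had 0.515 with adequate replicate 3. That stage thus does not tell replicates 1 and 3 apart by number, and replicate 2 stood apart in both diets. For the stage comparisons r was as low as 0.0986 on the deficient and -0.157 on the adequate diet, so there the numbers were not taken to pair the samples. Alternatives were other filters, array weights, replicate blocks, median centring, quantile normalization, a robust and trended variance, only the arrays compared, 1 feature per gene, all features named or not, leaving out each array, and leaving out basophilic replicate 2 of both diets.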

Additional observations from a re-analysis of the deposited data

Results flagged for a closer look

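The diet estimates of H2ac21 had opposite signs in the 2 stages: all 3 deficient arrays were below all 3 adequate arrays in basophilic erythroblasts and above them in proerythroblasts. Neither diet difference passed limma's test over all features (-0.54 in basophilic erythroblasts, adjusted p = 0.541, and 0.23 in proerythroblasts, adjusted p = 0.771). The interaction was -0.77 on the log2 scale and did not pass (adjusted p = 0.29).

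Among the list genes, the diet difference in basophilic erythroblasts minus that in proerythroblasts passed the interaction test for 8 genes. It was -1.58 for E2f2, -1.67 for Alas2, -1.37 for Slc4a1, -1.88 for Tmod1, -1.88 for Hbq1a and -1.18 for Fech, all of which were higher on the deficient diet in proerythroblasts. It was 2.13 for Kit and 2.15 for Myb, which were lower on the deficient diet in proerythroblasts.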

How the results depend on the processing

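Counts of members past the threshold are given with the share of all features that passed in the same direction under the same setting. The setting with 1 feature per gene held only features naming 1 gene. The 39 members naming several genes, H2bc4-led among them, were not tested there, so its counts cover fewer members and could not include these. For the diet difference in proerythroblasts (4 members higher, 1.25%) the count was 2 after median centring (0.81%), with 1 feature per gene (1.27%) and with all features named or not (0.561%). It was 66 with array weights (19.3%), 8 with the replicate block (1.7%), 50 with the replicate block within each stage (4.11%), 49 with only the arrays compared (5.5%) and 55 without basophilic replicate 2 of both diets (7.02%). Leaving out 1 array gave 1 to 17, with 17 without deficient basophilic replicate 2 (3.3%). It was 1 without deficient proerythroblast replicate 3 (0.477%) or adequate proerythroblast replicate 2 (0.529%), and 2 without any other proerythroblast array (0.51% to 0.852%). The diet difference in basophilic erythroblasts gave 0 under all 24 alternatives, replicate blocks included, where 0% to 2.03% of all features passed in either direction. For the stage difference on the deficient diet (1 member higher, 30.3%) the count was 4 with quantile normalization (21.6%) and with array weights (29.9%), 2 with the replicate block, 1 higher and 1 lower (33.3% and 28.9%), 15 without basophilic replicate 2 of both diets (31.5%), and 0 after median centring (16.7%), with only the arrays compared (3.35%) and with 1 feature per gene (31.1%). Leaving out 1 array gave 0 to 3, with 0 without deficient proerythroblast replicate 2 (19.8%) and 3 without deficient basophilic replicate 1, 2 higher and 1 lower (31.3% and 26.1%). On the adequate diet (19 members higher, 28.3%) it was 4 after median centring (10.5%), 57 with array weights (37%), 29 with the replicate block (32.5%), 30 with only the arrays compared (36.7%), 10 with 1 feature per gene (28.7%), 12 with all features named or not (22.1%), and 65 without basophilic replicate 2 of both diets (38.3%). Leaving out 1 array gave 8 to 40, with 40 without deficient (39.7%) and 29 without adequate basophilic replicate 2 (9.81%). The count was 10 without adequate proerythroblast replicate 3 (16.5%), and 8 without any other array of the adequate diet. For these counts of 8 the share was 11.2% without adequate proerythroblast replicate 1 and 11% without replicate 2. It was 25.5% without adequate basophilic replicate 1 and 16.9% without replicate 3. For the interaction (0 members lower, 0.122%) it was 3 with array weights (0.885%), 1 with the replicate block (0.145%), 29 with the replicate block within each stage (1.42%) and 21 without basophilic replicate 2 of both diets (1.45%). Leaving out 1 array gave 0 to 1, with 1 without deficient basophilic replicate 2 (0.389%) and 0 without any other array (0.0328% to 0.0843%). For the diet difference in proerythroblasts the estimates are the same without the 2 basophilic arrays, so that count changes with the spread. Other causes were not tested. In the stage comparisons the replicate numbers were not taken to pair the samples.

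The median over the 69 members kept its sign under quantile normalization, median centring and the leave-out alternatives for the diet difference in proerythroblasts (0.55 to 0.67), the stage difference on the adequate diet (0.41 to 0.85) and the interaction (-1.01 to -0.45). Without deficient basophilic replicate 2 it changed sign to 0.20 for the diet difference in basophilic erythroblasts and to 0.21 for the stage difference on the deficient diet, and without adequate basophilic replicate 3 the diet difference in basophilic erythroblasts was 0.04. Of 410 alternative values for 18 named results, 360 kept direction and side of the threshold, 44 fell below it and 6 passed it, and none reversed.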
